A study of Mus musculus with 7 samples.

Results

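The insulin-like growth factor (IGF) axis was examined in follicular dendritic cells (FDCs), the stromal cells that hold antigen in the B-cell follicle, with and without the neurotrophin receptor gene Ngfr. The members were chosen by gene symbol, with earlier results of these data known. They were the ligand gene Igf1, the receptor genes Igf1r and Igf2r, and the binding protein genes Igfbp2 to Igfbp7. Of these 9 genes, 7 were found among the 21176 genes of the deposited table, and Igfbp2 and Igfbp6 were not analysed here. The 7 samples were FDCs sorted from popliteal lymph nodes of male mice aged 8 to 12 weeks that had not been immunized, 4 samples from wild-type mice (WT) and 3 from mice lacking Ngfr (Ngfr KO). Each sample pooled nodes of several mice, and the labels name neither the strain nor the knockout allele. The submitters call the samples independent. The comparison asks how loss of Ngfr bears on the transcripts of these cells.

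IGF1 is a secreted hormone made in the liver and locally by stromal cells and macrophages, and it acts through the tyrosine kinase receptor IGF1R. IGF2R, the large mannose 6-phosphate receptor, takes up IGF2 for degradation and sorts lysosomal enzymes. The binding proteins hold IGFs in the extracellular space and release them when proteases cut them, and IGFBP7 is a distant relative with low affinity for IGFs that is known from blood vessel walls.

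In Ngfr KO samples the ligand gene, its signalling receptor and the most abundant binding protein gene were all lower. Mean signals of the 3 knockout samples stood at 38.1% of the mean of the 4 WT samples for Igf1, 41.1% for Igf1r and 39.4% for Igfbp7. Igfbp4 was lower to a smaller degree, at 69.3% of its WT mean. No member was called higher. Outside the members, Pappa and Igfals, an IGFBP protease gene and the gene of a carrier subunit, rose. Of 62 other pathway genes tested, 8 were called higher and 11 lower, where 34.2% of all genes tested were called.

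The 250 bases upstream of the RefSeq start sites of Igf1r, Igfbp4 and Igfbp7 are printed because these genes were called lower. Whether they share control was not tested. The sequences are from RefSeq on GRCm38.p6, each read 5′ to 3′ on the strand of its gene. The coordinates are chr7:67952007-67952256 on the plus strand for Igf1r, chr11:99040994-99041243 on the plus strand for Igfbp4 and chr5:77408046-77408295 on the minus strand for Igfbp7. Capitals mark matches on either strand to 4 short motifs: the TATA box (TATAAA), the CCAAT box, the GC box (GGGCGG) and the CACCC box.
Igf1r: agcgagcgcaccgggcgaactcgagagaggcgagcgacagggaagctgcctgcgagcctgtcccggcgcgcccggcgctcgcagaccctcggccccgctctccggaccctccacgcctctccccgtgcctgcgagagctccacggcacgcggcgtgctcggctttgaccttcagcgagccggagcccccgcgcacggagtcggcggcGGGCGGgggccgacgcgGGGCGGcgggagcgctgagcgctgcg
Igfbp4: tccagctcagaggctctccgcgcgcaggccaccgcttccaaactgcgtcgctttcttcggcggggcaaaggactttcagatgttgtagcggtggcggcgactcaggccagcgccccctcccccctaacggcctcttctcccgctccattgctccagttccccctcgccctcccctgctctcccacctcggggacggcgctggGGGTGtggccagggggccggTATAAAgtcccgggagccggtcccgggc
Igfbp7: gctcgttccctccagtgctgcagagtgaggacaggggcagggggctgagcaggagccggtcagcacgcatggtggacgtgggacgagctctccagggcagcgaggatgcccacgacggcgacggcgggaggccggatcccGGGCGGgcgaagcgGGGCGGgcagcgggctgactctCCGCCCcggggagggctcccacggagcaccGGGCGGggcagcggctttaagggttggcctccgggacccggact
The 3 windows differed in composition. The window of Igf1r held 2 matches to GGGCGG and that of Igfbp7 held 4, and neither had a match to TATAAA. The window of Igfbp4 held 1 match to TATAAA, which begins 28 bases upstream of the start site, and 1 match to CACCC. No matches overlapped each other. Over the 32851 RefSeq windows of the same length, 12.4% held TATAAA, 33.9% CCAAT, 32.7% GGGCGG and 52.0% CACCC. The share of G and C was 77.6% in the window of Igf1r, 69.2% in that of Igfbp4 and 74.0% in that of Igfbp7, against a median of 52.4% over all windows. The RefSeq window of Igf1, also lower in Ngfr KO, overlaps an annotated exon of GENCODE M21 and is not printed. It had 1 match to CCAAT, none to the other motifs, and a share of G and C of 52.8%. The Igf1r window ends 570 bases upstream of the gene's start in GENCODE M21.

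The libraries held 17244925 to 18873542 reads in WT and 20741770 to 21538400 in Ngfr KO, so that every Ngfr KO library was deeper (exact two-sided permutation test over 35 splits, p = 0.0286, the smallest value possible). Values are read counts scaled by the authors with 1 factor per sample (TMM, a scaling by library size and composition), called signal below, and a signal of 1 stood for 230 to 295 reads. The targeted gene Ngfr had signals of 0.377, 0.677, 1.30 and 1.14 in WT replicates 1 to 4 and of 0.305, 0.353 and 0.184 in Ngfr KO replicates 1 to 3. Its groups did not overlap, reads were present in every knockout library, and edgeR gave a log2 change of -1.55 with an adjusted p of 0.0574. The summed signal of the 21 listed FDC genes was 1857 to 5190 in WT samples and 8061 to 10580 in knockout samples. Much of this sum came from Cxcl13 and Clu. Cxcl13 had 859 to 2905 in WT and 2352 to 5277 in knockout samples, and Clu had 669 to 1489 and 2829 to 3191. Of 8326 genes tested with limma on log2(signal + 1), 34.2% were called at an adjusted p under 0.05, 15.8% lower and 18.3% higher in Ngfr KO. With libraries thinned and scaled to equal totals, 1047 genes were called higher and 1810 lower, against 1526 and 1318 with the authors' scaling.

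All 7 members in the table passed the filter on low values, which asked for a signal of 1 or more in 3 or more samples. Of these, 4 were called lower and 0 higher, where 15.8% of all genes tested were called lower. The same 4 had every Ngfr KO sample below every WT sample, as had 18.3% of all genes tested. With edgeR 3 members were called lower (Igf1, Igf1r and Igfbp7), where 6.55% of the 16751 genes it tested were. That wider set also held genes below the filter, so its share is not like the one from limma. The median log2 change was -0.51 over the 7 members and 0.02 over all genes tested. Because the members were chosen with earlier results of these data known, these counts and medians only describe them. Fewer cells of a type and less RNA per cell cannot be told apart in these bulk samples.

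**Figure D1:**
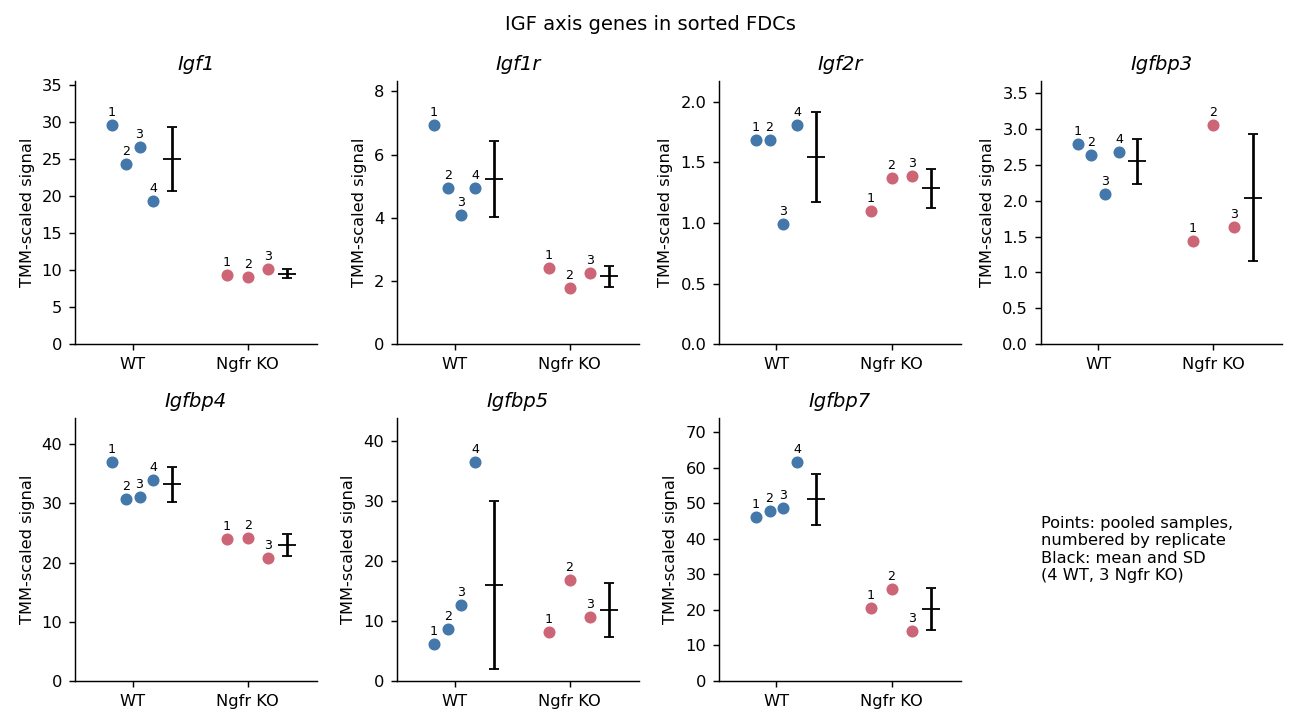
TMM-scaled signal of the 7 IGF axis genes in each pooled sample, WT in blue and Ngfr KO in red, with replicate numbers above the points and the mean and SD in black. Igf1, Igf1r, Igfbp4 and Igfbp7 show separate groups, while Igf2r, Igfbp3 and Igfbp5 overlap.

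Igf1 (ENSMUSG00000020053, protein coding) lies on the plus strand of chromosome 10 from 87858265 to 87937042 in the GENCODE M21 annotation of GRCm38. Its signal was 29.6, 24.4, 26.7 and 19.4 in WT replicates 1 to 4 and 9.39, 9.02 and 10.1 in Ngfr KO replicates 1 to 3. The groups lay far apart, and the knockout samples were close to each other, with a coefficient of variation of 6.03% against 17.3% in WT. The means were 25.0 ± 4.3 over the WT samples (SD, n = 4) and 9.52 ± 0.57 over the knockout samples (SD, n = 3). The log2 change of Igf1 was -1.29 (SE 0.18, 95% interval -1.69 to -0.90, limma adjusted p = 6.36e-04). An exact permutation test (two-sided) on Igf1 returned p = 0.0286, again the smallest value possible. Of all genes tested, 1.52% had a lower log2 change. Each library held 2534 to 7612 Igf1 reads. The gene Igf1os, on the opposite strand within the Igf1 locus without shared exons, had at most 20 reads in any sample.

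Igf2, the gene of the second ligand of the axis, was barely covered. It had 17, 18, 4 and 0 reads in WT replicates 1 to 4 and 0 in every Ngfr KO library, where 3 reads correspond to signals of 0.0102 to 0.0120. It failed the filter and was not tested.

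Igf1r (ENSMUSG00000005533) encodes the kinase receptor for IGF1 and lies on the plus strand of chromosome 7 from 67952827 to 68233668. Its signal was 6.94, 4.96, 4.09 and 4.93 in WT replicates 1 to 4 and 2.40, 1.78 and 2.27 in Ngfr KO replicates 1 to 3. The lowest WT sample was above the highest knockout sample, and WT replicate 1 was the highest of all. The means of Igf1r were 5.23 ± 1.21 over the WT samples (SD, n = 4) and 2.15 ± 0.33 over the knockout samples (SD, n = 3). Its log2 change was -0.97 (SE 0.18, 95% interval -1.35 to -0.59, limma adjusted p = 0.00207), and the exact permutation p was 0.0286. The pseudocount of 1 understates changes at this level of signal, and the edgeR log2 change on recovered reads was -1.22 (adjusted p = 0.00863).

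Igf2r (ENSMUSG00000023830, chromosome 17, 12682406 to 12769664, minus strand) was not called. Its signal was 1.68, 1.68, 0.991 and 1.81 in WT replicates 1 to 4 and 1.10, 1.37 and 1.39 in Ngfr KO replicates 1 to 3. The groups overlapped through WT replicate 3, whose signal was below every other sample. The log2 change of Igf2r was -0.14 with a 95% interval of -0.49 to 0.20 (limma adjusted p = 0.501). Airn, the noncoding RNA gene on the opposite strand, overlaps the Igf2r gene without sharing exons. Airn had a signal of 0.588 to 1.11 over the 7 samples, and without stated strand use reads from introns of Igf2r could be counted for it.

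Igfbp7 (ENSMUSG00000036256, chromosome 5, 77349240 to 77408041, minus strand) was the binding protein gene with the largest change. Its signal was 46.2, 47.9, 48.8 and 61.8 in WT replicates 1 to 4 and 20.4, 26.0 and 14.1 in Ngfr KO replicates 1 to 3. The groups were well separated, with WT replicate 4 standing above the other WT samples. The means of Igfbp7 were 51.2 ± 7.1 over the WT samples (SD, n = 4) and 20.2 ± 5.9 over the knockout samples (SD, n = 3). Its log2 change was -1.33 (SE 0.22, 95% interval -1.81 to -0.85, limma adjusted p = 0.00143), with an exact permutation p of 0.0286. Exons of Igfbp7 overlap those of Polr2b, the gene of an RNA polymerase subunit on the opposite strand. The signal of Polr2b was 4.55 to 6.34 over all samples, with a log2 change of -0.06.

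Igfbp4 (ENSMUSG00000017493, chromosome 11, 99041244 to 99054392, plus strand) encodes a binding protein known to restrain IGF action until it is cut by the protease PAPP-A. Its signal was 37.1, 30.7, 31.1 and 33.9 in WT replicates 1 to 4 and 24.0, 24.2 and 20.8 in Ngfr KO replicates 1 to 3. The groups did not overlap and the spread within each was small, 8.85% of the mean in WT and 8.24% in Ngfr KO. The log2 change of Igfbp4 was -0.51 (SE 0.17, 95% interval -0.89 to -0.13, limma adjusted p = 0.0392), with an exact permutation p of 0.0286. This call was close to the threshold: the adjusted p was 0.108 with edgeR. It was 0.0549 to 0.101 without WT replicate 1, 2 or 4 or any of the 3 Ngfr KO replicates, and only without WT replicate 3 did it stay under 0.05, at 0.0377.

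Igfbp5 (ENSMUSG00000026185, chromosome 1, 72857932 to 72874884, minus strand), a binding protein gene of connective tissue cells, had the widest spread among the WT samples. Its signal was 6.11, 8.58, 12.6 and 36.6 in WT replicates 1 to 4 and 8.10, 16.8 and 10.6 in Ngfr KO replicates 1 to 3. All knockout samples lay inside the WT range, and WT replicate 4 was the highest by a wide margin. The coefficient of variation was 87.7% in WT and 37.9% in Ngfr KO. The log2 change of Igfbp5 was -0.14, and its 95% interval of -1.12 to 0.83 allows changes of either sign (limma adjusted p = 0.820). Without WT replicate 4 the estimate was 0.34 (adjusted p = 0.377), and without Ngfr KO replicate 1 it was 0.08 (adjusted p = 0.921).

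Igfbp3 (ENSMUSG00000020427, chromosome 11, 7206086 to 7213923, minus strand), the main IGF carrier of the blood, had signals of 2.79, 2.63, 2.09 and 2.67 in WT replicates 1 to 4. In Ngfr KO replicates 1 to 3 it had 1.43, 3.06 and 1.63. Ngfr KO replicate 2 was the highest sample of all and the other knockout samples were below every WT sample, so the groups overlapped. The log2 change of Igfbp3 was -0.26 with a 95% interval of -0.66 to 0.15 (limma adjusted p = 0.304). Without Ngfr KO replicate 2 it was -0.48 (adjusted p = 0.0648).

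**Figure D2:**
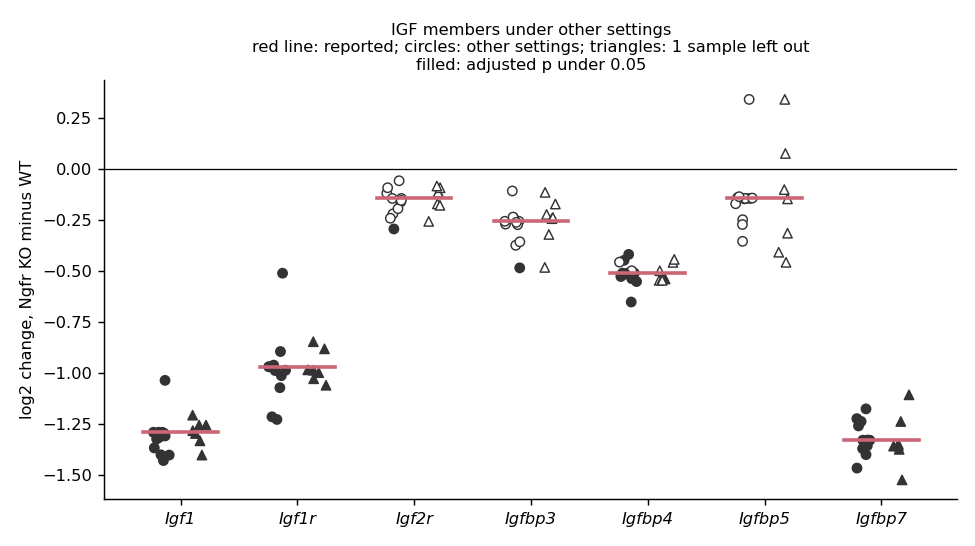
Log2 change (Ngfr KO minus WT) of each IGF member as reported (red line), under other settings (circles) and with 1 sample left out (triangles), filled where the adjusted p was under 0.05. Igf1, Igf1r and Igfbp7 have filled symbols at every setting that tested them, Igfbp4 at 11 of 19, and the estimates of Igfbp5 fall on both sides of 0.

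Levels of different genes were compared as signal per kb of exon, using all annotated exon bases of each gene. In WT, Igfbp7 had the highest level, 42.3 ± 5.9 per kb (SD, n = 4), followed by Igfbp4 with 7.52 ± 0.67. Next came Igfbp5 with 2.66 ± 2.33 and Igf1 with 2.53 ± 0.44 per kb, which did not differ beyond their spread. Igfbp3 followed with 0.814 ± 0.099, Igf1r with 0.311 ± 0.072 and Igf2r with 0.165 ± 0.040 per kb. Apart from Igfbp5 and Igf1, the sample ranges of neighbours in this WT order did not overlap. Igfbp7 lay above 98.9% of all genes tested by WT level per kb, Igf1 above 83.5% and Igf1r above 26.9%.

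In Ngfr KO the order per kb began alike, with Igfbp7 at 16.7 ± 4.9 (SD, n = 3), Igfbp4 at 5.21 ± 0.43 and Igfbp5 at 1.97 ± 0.75. Igf1 stood at 0.961 ± 0.058 per kb and Igfbp3 at 0.652 ± 0.283, and their sample ranges overlapped. Igf2r, at 0.138 ± 0.018 per kb, and Igf1r, at 0.128 ± 0.020, overlapped as well, whereas in WT every sample had more Igf1r than any sample had Igf2r per kb. By level per kb, Igf1 lay above 61.8% and Igf1r above 8.22% of all genes tested in Ngfr KO.

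The summed level of the 4 measured binding protein genes was 48.5, 48.8, 50.2 and 65.7 per kb in WT replicates 1 to 4. In Ngfr KO replicates 1 to 3 the sum was 24.2, 30.7 and 18.7. Igfbp7 made up 77.7% to 81.1% of this sum in WT and 62.5% to 70.0% in Ngfr KO, without overlap. The share of Igfbp4 was 11.7% to 17.3% in WT samples and 17.8% to 25.2% in knockout samples. The share of Igfbp5 was 2.10% to 9.26% in WT samples and 5.59% to 9.48% in knockout samples. The summed binding protein level per kb was 16.2 to 33.6 times the Igf1 level per kb in WT samples and 18.2 to 33.7 times in knockout samples, ranges that overlapped. No test was made of these sums and shares.

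**Figure D3:**
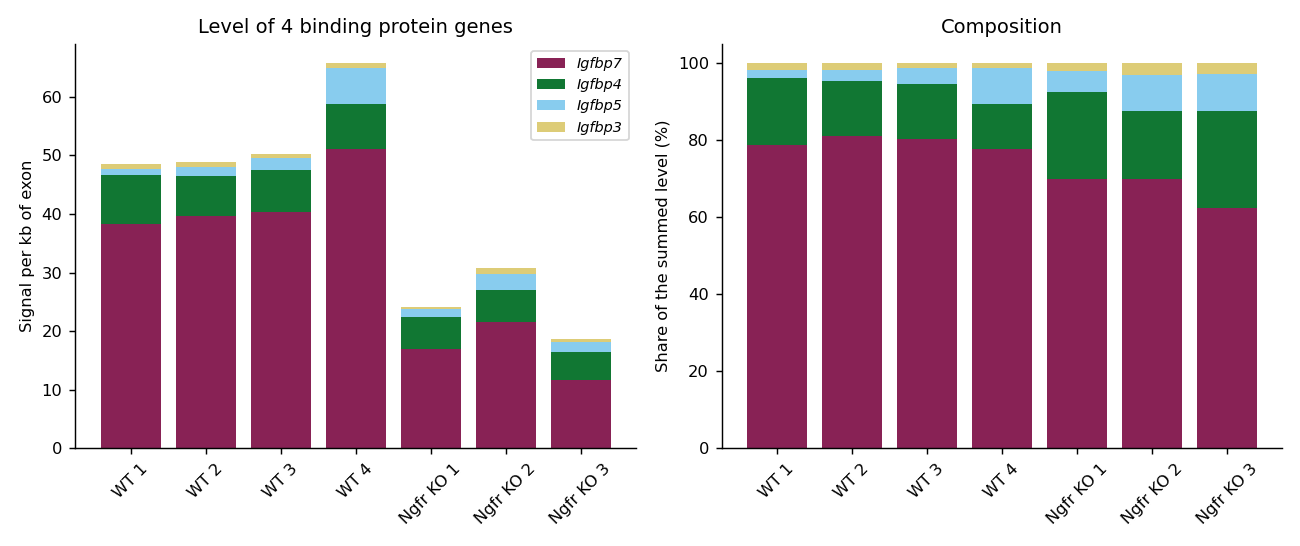
Signal per kb of exon of Igfbp7, Igfbp4, Igfbp5 and Igfbp3 stacked for each of the 7 samples (left) and as a share of their sum in percent (right). The sums are 48.5 to 65.7 in WT samples and 18.7 to 30.7 in knockout samples, and Igfbp7 takes the largest share in every sample.

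Other genes of the pathway came from 8 lists written with earlier results of these data known. They named 107 symbols, of which 93 were in the table and 62 were tested; 8 were called higher and 11 lower, where 34.2% of all genes tested were called. The median log2 change over the 62 genes was -0.01. Among those named below, Sort1, Stc2, Gab1, Inpp5d and Trib1 passed the filter on low values through the WT samples alone and Igfals through the knockout samples alone, the groups where they are high, so the filter itself favours a difference in them. Without a filter Stc2 and Inpp5d were not called. Sort1, Gab1, Trib1 and Igfals still were, but near the threshold, with limma adjusted p of 0.0488, 0.0426, 0.0394 and 0.0485.

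Among carriers and binding protein relatives, Igfals and Htra1 rose. Igfals encodes the acid-labile subunit, which joins IGF and IGFBP3 or IGFBP5 in the large complex of the blood. Its signal was 0.471, 1.12, 0.713 and 1.61 in WT replicates 1 to 4 and 2.31, 4.54 and 2.26 in Ngfr KO replicates 1 to 3. Every knockout sample was above every WT sample, and the log2 change of Igfals was 1.02 (SE 0.23, limma adjusted p = 0.00657). Htra1, the gene of a secreted serine protease with an IGFBP-like domain, had a signal of 3.29, 9.44, 11.2 and 13.3 in WT and of 24.2, 27.5 and 21.9 in Ngfr KO. The groups of Htra1 did not overlap, and its log2 change was 1.44 (SE 0.33, limma adjusted p = 0.00720). Without a filter the adjusted p of Htra1 was 0.0545.

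Of 5 tested genes for binding protein proteases and their inhibitors, 1 was called higher and 1 lower. Among all genes tested, 18.3% were called higher and 15.8% lower. Pappa encodes the metalloprotease PAPP-A, which cuts IGFBP4 and releases IGF. Its signal was 0.603, 2.01, 2.39 and 2.74 in WT replicates 1 to 4 and 9.85, 6.79 and 8.93 in Ngfr KO replicates 1 to 3. The groups of Pappa were widely separated. Its log2 change was 1.75 (SE 0.26, 95% interval 1.19 to 2.32, limma adjusted p = 8.18e-04), and edgeR gave 2.198 (adjusted p = 0.00893). Stc2, which encodes an inhibitor of PAPP-A, fell from a WT mean of 2.04 ± 0.41 (SD, n = 4) to 1.03 ± 0.24 (SD, n = 3), with a log2 change of -0.58 (limma adjusted p = 0.0169). The adjusted p of Stc2 was 0.0697 without Ngfr KO replicate 1, 0.0501 without Ngfr KO replicate 3 and 0.0548 without a filter. Its relative Stc1 was not called, with a log2 change of 0.20 and a 95% interval of -0.16 to 0.56 (limma adjusted p = 0.361).

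Of 7 tested receptor and lysosomal sorting genes, 1 was called higher and 1 lower, where 34.2% of all genes tested were called. M6pr encodes the small mannose 6-phosphate receptor, which shares the lysosomal sorting role of IGF2R but does not bind IGF2. The signal of M6pr was 6.16, 7.24, 7.03 and 8.36 in WT and 16.6, 19.0 and 13.3 in Ngfr KO. The groups of M6pr lay apart, and the log2 change was 1.07 (SE 0.18, adjusted p = 0.00135 by limma). Sort1, the gene of the sorting receptor sortilin, fell from a WT mean of 1.34 ± 0.21 (SD, n = 4) to 0.652 ± 0.102 (SD, n = 3). Its log2 change was -0.50 (limma adjusted p = 0.0170), and the adjusted p was 0.0644 without Ngfr KO replicate 2. Insr, the insulin receptor gene, had signals of 2.62, 2.58, 2.05 and 2.61 in WT and 3.77, 2.60 and 3.87 in Ngfr KO. It was not called: the groups overlapped through Ngfr KO replicate 2, and its log2 change of 0.34 had a 95% interval of -0.01 to 0.69 (limma adjusted p = 0.115).

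Of 25 tested genes for adaptors and kinases downstream of the receptor, 3 were called lower and 0 higher, with a median log2 change of -0.20. The share called lower was below the 15.8% of all genes tested. Sos1, an exchange factor that activates Ras, fell from a WT mean of 2.86 ± 0.40 (SD, n = 4) to 1.33 ± 0.07 (SD, n = 3), with a log2 change of -0.73 (limma adjusted p = 0.00325). Gab1, a docking protein, fell by 0.63 on the log2 scale (limma adjusted p = 0.00926). Shc1, an adaptor that binds the activated receptor, fell by 0.49 (limma adjusted p = 0.0406). The call of Shc1 was lost with edgeR (adjusted p = 0.107), without a filter (0.0960) and without WT replicate 1 (0.0773), 2 (0.0626) or 4 (0.0839) or Ngfr KO replicate 1 (0.150) or 3 (0.0955). Irs2, an insulin receptor substrate, had a log2 change of -0.12 with a 95% interval of -0.76 to 0.52 (limma adjusted p = 0.762). Without WT replicate 3 its estimate was 0.10, and without Ngfr KO replicate 2 it was 0.08. Irs1 did not pass the filter, with 6 to 176 reads per WT library and 48 to 61 per Ngfr KO library.

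Of 11 tested phosphatases and negative regulators, 2 were called in each direction, a share near the 34.2% of all genes tested. Ptpn1, whose phosphatase PTP1B acts on the insulin and IGF1 receptors, had signals of 3.82 to 6.31 in WT samples and 9.10 to 12.0 in knockout samples. Its relative Ptpn2 had 4.86 to 5.91 in WT samples and 9.22 to 10.9 in knockout samples. The groups overlapped in neither gene, and the log2 changes were 0.89 for Ptpn1 (limma adjusted p = 0.00414) and 0.81 for Ptpn2 (limma adjusted p = 0.00237). Inpp5d, a lipid phosphatase gene best known from blood cells, fell by 0.75 on the log2 scale (limma adjusted p = 0.0124). Without a filter the adjusted p of Inpp5d was 0.0647, and without Ngfr KO replicate 2 it was 0.05002. Without WT replicate 1, 2 or 4 Inpp5d failed the filter and was not tested. Socs3, a feedback inhibitor of cytokine signalling, fell by 0.84 (limma adjusted p = 0.0302) with overlapping groups. The call of Socs3 was lost with edgeR (adjusted p = 0.0906), without a filter (0.115) and without WT replicate 1 (0.0724) or 3 (0.0721) or Ngfr KO replicate 1 (0.129) or 2 (0.109).

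FOXO transcription factors are kept out of the nucleus by IGF and insulin signalling, and a list held FOXO genes and genes they are known to activate. Of 11 tested, 2 were called higher and 4 lower, where 18.3% of all genes tested were called higher and 15.8% lower. Foxo1 had signals of 5.17, 4.44, 4.46 and 5.01 in WT replicates 1 to 4 and of 1.34, 1.79 and 1.03 in Ngfr KO replicates 1 to 3. The WT samples were close together and far above the knockout samples, and the log2 change of Foxo1 was -1.28 (SE 0.16, adjusted p = 3.30e-04 by limma). Txnip, a thioredoxin inhibitor gene, fell from a WT mean of 29.2 ± 5.8 (SD, n = 4) to 8.27 ± 5.29 (SD, n = 3), a log2 change of -1.92 (limma adjusted p = 0.00343). Ngfr KO replicate 3 had the lowest Txnip signal, 2.27 against 10.2 and 12.3, and without it the log2 change was -1.28 (adjusted p = 0.00306). Trib1, the gene of a pseudokinase, fell by 0.89 (limma adjusted p = 0.00587). Gadd45a, a stress response gene, rose by 0.54 (limma adjusted p = 0.0456), and Bnip3, a mitophagy gene, rose by 0.53 (limma adjusted p = 0.0495). Both calls lay at the threshold and were lost under 12 of 18 alternatives for Gadd45a and 14 of 18 for Bnip3. edgeR gave an adjusted p of 0.117 for Gadd45a and 0.0749 for Bnip3. Leaving out 1 sample ended the call of each in 6 of 7 fits, with adjusted p-values up to 0.140 for Gadd45a, which stayed under 0.05 without WT replicate 3 (0.0157), and up to 0.201 for Bnip3, which did so without that same replicate (0.0356).

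**Figure D4:**
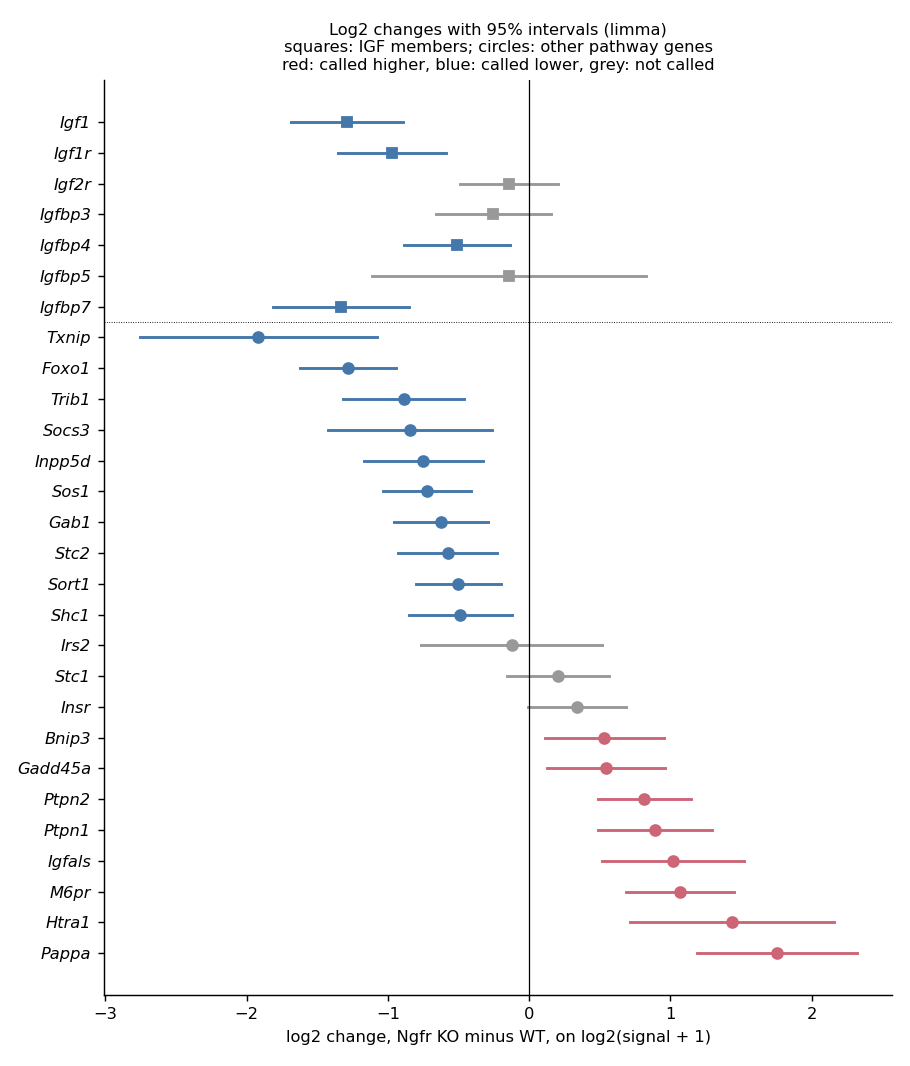
Log2 change (Ngfr KO minus WT, on log2(signal + 1)) with its 95% interval from limma for the 7 IGF members (squares) and the other pathway genes named (circles), red where called higher, blue where called lower and grey where not called. Txnip, Igfbp7, Igf1 and Foxo1 have the most negative values and Pappa the highest, 1.75.

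Markers of other cell types moved with genotype beside these results. The cell type lists, too, were chosen with earlier results of these data known, so their counts are a description. Of 17 listed endothelial genes, all were in the table and 15 were tested, and all 15 tested genes were called lower in Ngfr KO, where 15.8% of all genes tested were. The summed endothelial signal was 168 to 216 in WT samples and 38.4 to 70.5 in knockout samples, and no marker of the list was at 0 in every knockout sample. The endothelial growth factor receptor gene Kdr averaged 33.0 ± 9.99 over WT samples (SD, n = 4) and 8.57 ± 3.22 over knockout samples (SD, n = 3), and Plvap, a gene of fenestrated vessels, had 32.5 ± 3.3 and 12.8 ± 4.1. Of 5 tested lymphatic endothelial genes 4 were called lower, with sums of 73.7 to 129 in WT samples and 21.7 to 55.4 in knockout samples. The groups overlapped in the most abundant genes of this list, Lyve1 and Ccl21a. Lyve1 had 16.3 to 62.5 in WT and 10.3 to 26.0 in knockout samples (adjusted p = 0.0465 by limma, 0.0975 by edgeR). Ccl21a, also on the reticular stroma list, had 6.81 to 73.5 and 3.26 to 19.7 and was not called (limma adjusted p = 0.430). The endothelial and lymphatic endothelial lists fell in the same direction as Igf1, Igf1r, Igfbp4 and Igfbp7. The part of these lists in the changes of the IGF genes was not tested.

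Most calls on the lists of stromal cells were in the other direction, higher in Ngfr KO, as were 18.3% of all genes tested. Of 15 reticular stroma genes 9 were tested, 4 called higher and 1 lower, with sums of 101 to 230 in WT samples and 259 to 371 in knockout samples. The matrix gene Dcn of that list rose from 48.0 ± 14.5 (SD, n = 4) to 198 ± 49 (SD, n = 3). Of 10 pericyte genes 6 were tested and 3 called higher, with sums of 25.3 to 61.7 in WT samples and 48.0 to 80.2 in knockout samples. Of 20 tested FDC genes 15 were called higher and 0 lower. Among B-cell genes 2 of 7 tested were called, both higher, and among T-cell genes 0 of 5. Of 12 myeloid genes 4 were tested, and 1 was called higher, Lyz2, and 1 lower, the macrophage receptor gene Mrc1. The groups overlapped in both, and edgeR called neither (adjusted p = 0.0576 for Lyz2 and 0.190 for Mrc1). Ngfr KO replicate 3 had the highest Lyz2 signal, 28.1, against 9.19 and 3.29 in the other knockout samples, and 1 read of Mrc1 against 597 and 396. The summed myeloid signal was 4.28 to 20.8 in WT samples and 7.85 to 37.3 in knockout samples. The part of these lists in the changes of the IGF genes was not tested. With libraries thinned to equal depth and the authors' scaling kept, Igf1, Igf1r, Igfbp4 and Igfbp7 were the 4 members called, as at full depth.

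**Figure D5:**
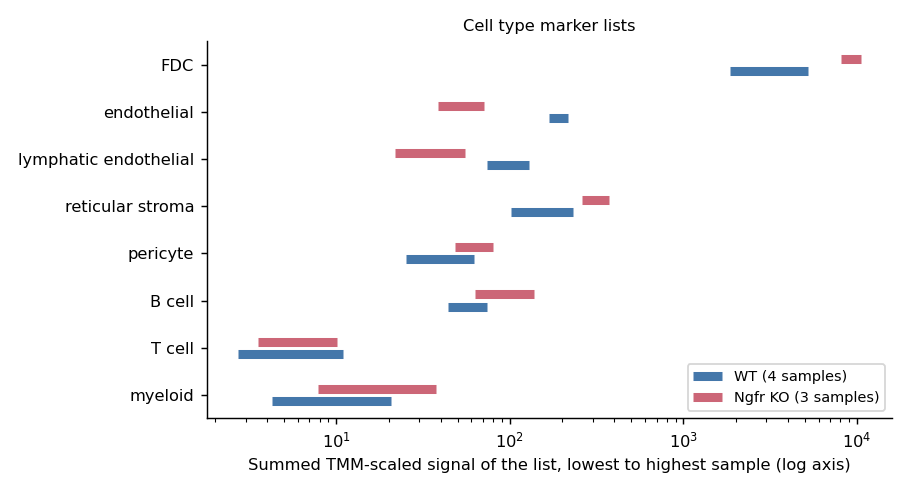
Range over samples of the summed TMM-scaled signal of each cell type marker list on a log axis, WT in blue (4 samples) and Ngfr KO in red (3 samples). The endothelial ranges are 168 to 216 and 38.4 to 70.5, while the FDC and reticular stroma lists are higher in Ngfr KO.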

How the data were processed

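RNA of sorted FDCs was sequenced, per the labels' protocols, after SMART-Seq v4 amplification and Nextera XT library preparation, in 4 WT and 3 Ngfr KO pooled samples. The authors deposited 1 table of signal per gene and sample, called TMM in its name. The submitters' processing notes name bcl2fastq 2.20.0.422 and mm10; the aligner, counter and strand setting are not given in the sources used here. In each sample 100% of values were whole multiples of 1 step (tolerance 0.01 reads), which gave the reads back. Amplified reads are not independent molecules, so a floor in reads covers counting error only. Genes were matched by identifier to GENCODE M21 (GRCm38): 21118 matched and 58 did not.

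Groups came from the sample titles. Ngfr KO was compared with WT by limma 3.58.1 in R 4.3.3 (eBayes with trend) on log2(signal + 1), without covariates, where 3 or more samples had a signal of 1 or more. A gene was called if its p, adjusted by Benjamini and Hochberg's method, was under 0.05. A log2 change on this scale understates changes of low genes. p-values measure the spread between pooled samples. edgeR 4.0.16 (quasi-likelihood) on the recovered reads, which called 2551 of 16751 genes, was an alternative, with those of the closing section. The scripts were tested on simulated data. Named genes are the members, Ngfr, up to 3 called genes per pathway list and direction, direct relatives of the members, the 3 genes most like Igf1 and the top binding protein gene, and up to 2 abundant genes per marker list; genes overlapping members were added after their values were seen. Members and lists were chosen with earlier results of these data known.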

Additional observations from a re-analysis of the deposited data

Results flagged for a closer look

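In each of 46 results the 4 WT samples were searched for a sample far from the others, measured as its gap to the nearest sample over the whole range, against Dixon's critical value. It was passed in 5 results, where chance gives about 1 in 20, or 2.3. Of these, 3 concern WT replicate 4. The signal of Igfbp7 was 61.8 there and 46.2 to 48.8 in the other WT samples, and without that replicate the log2 change of Igfbp7 was -1.24 (limma adjusted p = 0.00412). The summed binding protein level per kb was 65.7 in WT replicate 4, the other WT samples having 48.5 to 50.2. Igfbp7 made up 77.7% to 81.1% of that sum in WT, so its flag and that of the sum are not independent. The summed signal of the reticular stroma list was 229.9 in WT replicate 4, against 101 to 107 elsewhere in WT. The remaining 2 concern WT replicate 3. The signal of Igf2r was 0.991 there and 1.68 to 1.81 in the other WT samples, and without that replicate its log2 change was -0.26 (limma adjusted p = 0.156). The signal of Insr was 2.05 in WT replicate 3, against 2.58 to 2.62 elsewhere in WT, and without it the log2 change of Insr was 0.28 (limma adjusted p = 0.193).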

How the results depend on the processing

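Igf1 and Igfbp7 stayed called lower under all 19 alternatives, with log2 changes of -1.43 to -1.04 and -1.53 to -1.11, and Igf1r under the 18 that tested it, with -1.23 to -0.51. Igfbp4 was lower under all 19 and called under 11. Between 3 and 4 members were called in the 7 fits without 1 sample; array weights, with 6 members called, added Igf2r (adjusted p = 0.0328) and Igfbp3 (0.00906). The log2 change of Igfbp5 turned to 0.34 with the replicate block, and without 1 sample it ranged from -0.46 to 0.34. That of Irs2 turned to 0.10 with array weights and ranged from -0.38 to 0.10 without 1 sample, 0.08 among them. Over all genes, 2844 were called as reported, 535 with a signal of at least 10 required, 4881 with array weights and 1614 to 3006 without 1 sample, the low counts being 1870 without WT replicate 1, 1803 without Ngfr KO replicate 1 and 1614 without Ngfr KO replicate 2. Of the pathway genes, 19 were called as reported, 12 without a filter, 3 with the stricter filter, which tested fewer genes, 33 with array weights and 13 to 20 without 1 sample. For the rest of these shifts, the cause was not tested. Equal totals moved the median log2 change of the genes tested from 0.02 to -0.08 and the share of higher calls from 53.7% to 36.6%; the 4 called members were called there too. Same-numbered samples did not pair consistently: their deviations correlated at 0.298, -0.0593 and -0.0108 for numbers 1 to 3. Samples of unlike number correlated at -0.1997 to 0.1112, so number 1 stood above them. The replicate block, which leaves WT replicate 4 without a partner, called 2717 genes and 3 members, Igfbp4 having an adjusted p of 0.0985; the calls of Shc1 (0.102) and Bnip3 (0.102) were lost there too. Thinning with the authors' scaling kept was chosen after seeing the data. Igf2, with at most 18 reads per library, was too shallow to pass the filter and was not tested.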

Other observations

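The genes whose log2(signal + 1) followed Igf1 most closely over the 7 samples were Smchd1, Gm43579 and Btbd3, with Pearson's r of 0.994, 0.993 and 0.993 as a description. Each was lower in Ngfr KO, and Btbd3 had mean signals of 4.05 in WT and 1.93 in Ngfr KO. For Igfbp7, the binding protein gene with the highest level per kb, they were Reep3, Thy1 and Ralgps2, with r of 0.986, 0.982 and 0.981. Thy1, a surface glycoprotein gene of stromal and T cells that is also on the reticular stroma list, had mean signals of 1.61 in WT and 0.232 in Ngfr KO. Gm43579, Thy1 and Ralgps2 passed the filter on low values through the WT samples alone, the group where they are high. The filter itself therefore favours a lower knockout level in them. Such correlations over 7 samples rest mainly on the gap between the genotypes, and the samples share their libraries and depth.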
